A study of Ovis aries and Bos taurus with 6 samples.

Results

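Milk fat is made in the mammary epithelial cell, and 10 miRNAs that work on mammary cells or fat tissue has tied to that process were followed here in milk extracellular vesicles (EVs) of sheep and cow. EVs are small vesicles released by cells, with RNA inside. The 10 are miR-23a, miR-23b, miR-24, miR-27a, miR-27b, miR-33a, miR-103, miR-107, miR-181a and miR-181b. They were found in the count tables by name after the species prefix and arm suffix were removed. In the sheep table, which lists a sequence for each row, unnamed rows were added that share bases 2 to 8 with miR-23a, miR-103 or miR-181a, or that list mature miR-24, miR-27a, miR-27b or miR-33a over at least 17 bases. This took 26 of 1464 rows, which were 15 of 685 sheep rows and 11 of 779 cow rows. Of the sheep rows, 6 carried a miRBase name and 9 did not. All 10 miRNAs had at least 1 row in each species.

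Milk of 3 Ordos fine wool sheep was compared with milk of Holstein cows, all females in mid lactation, with 3 small RNA libraries a species. EVs were precipitated with a commercial kit for body fluids, which does not sort vesicles by cell of origin, and the labels name no treatment. The cow libraries come from an earlier study of the same group, so a difference between the species cannot be told apart from one between breeds or studies. The labels do not say that the cow libraries came from separate animals, and p-values then measure only the spread between these libraries.

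A miRNA guides a silencing complex to messenger RNAs whose sequence pairs with its seed, bases 2 to 8, and lowers their output. miR-23, miR-27 and miR-24 come from paired hairpin clusters in mammals. One gives miR-23a and miR-27a, the other miR-23b and miR-27b, and both give the same mature miR-24. miR-27 is known to repress PPARG, a master regulator of fat cell formation. miR-24 has been tied to fatty acid synthase in goat mammary cells, and miR-181a and miR-181b to fatty acid activation and insulin signalling. miR-103 and miR-107 sit in introns of pantothenate kinase genes, which start coenzyme A synthesis. miR-33a sits in an intron of SREBF2, a regulator of sterol synthesis, and represses the cholesterol exporter ABCA1.

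The sequences the sheep table lists are shown because the paralogs differ by few bases, and the counts depend on which row a read was given to. They are written 5′ to 3′ with the seed in capitals, in the DNA letters of the file.
miR-23a: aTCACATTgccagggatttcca
miR-23b: aTCACATTgccagggatt
miR-27a: tTCACAGTggctaagttccgc
miR-27b: tTCACAGTggctaagttct
miR-24: tGGCTCAGttcagcaggaacagg
miR-103: aGCAGCATtgtacagggctatg
miR-107: aGCAGCATtgtacagggctatc
miR-181a: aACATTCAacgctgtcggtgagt
miR-181b: aACATTCAttgctgtcggtgggt
miR-33a: gTGCATTGtagttgcattgca

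Members of a pair share their seed. The listed miR-23b has 18 bases, all identical to the first 18 of miR-23a, so a read of that length does not tell them apart. The listed miR-27b has 19 bases and differs from miR-27a at its last base only, C19T, counted from 1 at the 5′ end. miR-103 and miR-107 differ at the last base, G22C. miR-181a and miR-181b differ at 3 positions, A9T, C10T and A21G. The sources used here do not give how reads that match more than 1 row were assigned, so the split within the first 3 pairs is uncertain, and sums of pairs are given beside the single values. In the sheep table no row outside the 15 carried the seed of miR-23, miR-24, miR-27, miR-33, miR-103 or miR-181. In RefSeq's sheep gene table (assembly ARS-UI_Ramb_v3.0; the build of the files is not named), 7 of 11 gene symbols sought were found: MIR23A lies next to MIR27A, MIR23B within AOPEP, MIR103 within PANK3 and MIR107 within PANK1.

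The libraries held 1073914 to 2078695 miRNA counts in sheep and 328527 to 556489 in cow. Levels are given as CPM, the count divided by the library's miRNA counts and scaled by one factor for every library, without regard to length. They are shares of sequenced reads and not numbers of molecules, since adapter ligation and PCR favour some miRNAs. Wilson 95% intervals of a single row's share reached at most 0.026 percentage points to either side and cover counting error only. A count of 0 allows up to 1.44 to 2.79 CPM in a sheep library and 5.39 to 9.13 in a cow library, from a floor of 3 counts. Rows with a miRBase name held 41.9% to 78.1% of sheep counts and 15.8% to 29.0% of cow counts, and cow rows carry no sequences, so cow reads of these miRNAs in unnamed rows were not counted. The largest row of cow replicates 1, 2 and 3 had no miRBase name and held 58.9%, 51.2% and 68.9% of the counts. Which miRNA these counts belong to is not given, and they enter the denominator of every cow CPM and share. The lactating mammary marker miR-148a held 19.6% to 63.6% of sheep counts but 0.104% to 0.219% of cow counts, and 5 further epithelial markers, 4 of them found in sheep, together held 0.264% to 0.687% against 0.00359% to 0.0335%. Sheep replicate 1 stood apart from the other sheep libraries, with liver miR-122 at 7.02% and red blood cell markers, of which 1 of 3 was found in sheep, at 7.72%, against at most 0.570% and 0.0741%. Striated muscle markers, 3 of 4 found in sheep, held 2.64% there against at most 0.0772%. The red blood cell markers, all 3 with counts in cow, held 1.98%, 1.53% and 2.76% in cow replicates 1, 2 and 3. The part of these markers in the results below was not tested.

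The sheep and cow libraries held different leading members. In sheep miR-24 led with 27.8%, 43.4% and 48.8% of the members' counts in replicates 1, 2 and 3, and in cow miR-27b led with 56.3%, 63.4% and 49.6%. miR-27b was 7.32%, 7.78% and 3.75% of the members' counts in sheep, and miR-24 was 5.50%, 5.76% and 7.88% in cow. The groups did not overlap for either miRNA. Among all miRNA counts the 10 members together held 14333, 10639 and 18998 CPM in sheep and 10343, 14029 and 5529.7 CPM in cow, and these ranges overlapped.

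**Figure D1:**
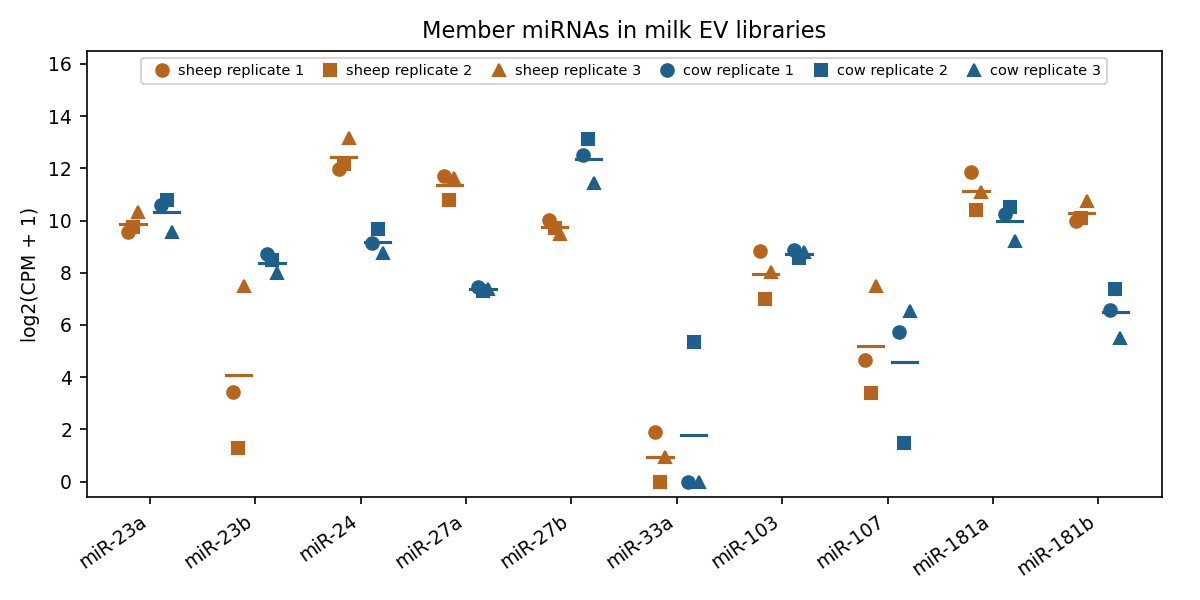
Level of each miRNA in each library as log2(CPM + 1), with sheep in orange, cow in blue, a marker shape for each replicate number, and a line at the mean of 3 libraries. miR-24, miR-27a and miR-181b lie higher in every sheep library, miR-23b and miR-27b lie higher in every cow library, and the other 5 overlap.

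The order of mean CPM in sheep was miR-24, miR-27a, miR-181a, miR-181b, miR-23a, miR-27b, miR-103, miR-107, miR-23b and miR-33a. Neighbours in this order overlapped between libraries except miR-24 over miR-27a and miR-27b over miR-103. In cow the order was miR-27b, miR-23a, miR-181a, miR-24, miR-103, miR-23b, miR-27a, miR-181b, miR-107 and miR-33a. There, neighbours overlapped except miR-27b over miR-23a and miR-23b over miR-27a.

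miR-27, the repressor of PPARG, was present in both species but with its paralogs in opposite order. miR-27a stood at 3325, 1765 and 3191 CPM in sheep replicates 1, 2 and 3 and at 177, 156 and 165 CPM in cow. Every sheep library was above every cow library, and the cow libraries lay close together. miR-27b stood at 1049, 827 and 712 CPM in sheep and at 5823, 8891 and 2744 CPM in cow, and here every cow library was higher. The ratio of miR-27a to miR-27b in one library, which needs no scaling between libraries, was 3.17, 2.13 and 4.48 in sheep and 0.0303, 0.0176 and 0.0602 in cow. On the log2 scale, with 0.5 added to each count, the mean was 1.64 ± 0.54 in sheep and -4.97 ± 0.89 in cow (SD, n = 3 each), a difference of 6.61. An exact two-sided permutation test gave p = 0.1, the smallest that 3 libraries against 3 allow. The ratio still depends on which row a read was given to. The sheep miR-27b counts came from an unnamed 19-base row that differs from miR-27a at its last base only. In cow, reads in unnamed rows were not counted. The sum of both paralogs was 4374, 2592 and 3903 CPM in sheep and 5999.5, 9048 and 2909 CPM in cow, which overlapped.

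miR-23a stood at 752, 855 and 1294 CPM in sheep and at 1534, 1761 and 761 CPM in cow, with overlap. Its paralog miR-23b stood at 9.90, 1.44 and 177 CPM in sheep, from 11, 3 and 190 counts, and at 420.1, 356 and 250.2 CPM in cow. All cow libraries were above all sheep libraries, and sheep replicate 3 stood far above the other sheep libraries. The log2 ratio of miR-23a to miR-23b was 6.18, 8.99 and 2.87 in sheep and 1.86, 2.30 and 1.60 in cow, a difference of 4.09 without overlap (exact permutation p = 0.1). The 5p arm of miR-23b was listed in the cow table with 0 counts in all 3 libraries. The pair summed to 762, 857 and 1471 CPM in sheep and 1954, 2117 and 1011 CPM in cow, with overlap.

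miR-24 stood at 3989.6, 4619 and 9269 CPM in sheep and at 569, 809 and 436 CPM in cow. All sheep libraries were higher. The mean share of all miRNA counts was 9.86 times as high in sheep, against 2.21 times over the miRNAs joined by name and 26.5 times over the constant behind the deposited TPM. None of the sheep miR-24 counts came from a row with a miRBase name. They came from 4 unnamed rows, 3 of which list the same start and differ only in where they stop, at 23, 22 or 20 bases:
miR-24, 23 bases: tGGCTCAGttcagcaggaacagg
miR-24, 22 bases: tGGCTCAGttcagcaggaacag
miR-24, 20 bases: tGGCTCAGttcagcaggaac

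The 23-base row held 72.2%, 55.9% and 58.5% of the miR-24 counts in sheep replicates 1, 2 and 3. The 20-base row held 3.52%, 36.3% and 2.27%, so replicate 2 stood apart by its short row. The 22-base row held 24.3%, 7.81% and 39.2%. The remaining row held 0, 0 and 4 counts. Rows of the opposite hairpin arm were listed for the 23-base and 22-base rows, with 14, 191 and 174 counts and with 12, 8 and 11 counts.

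**Figure D2:**
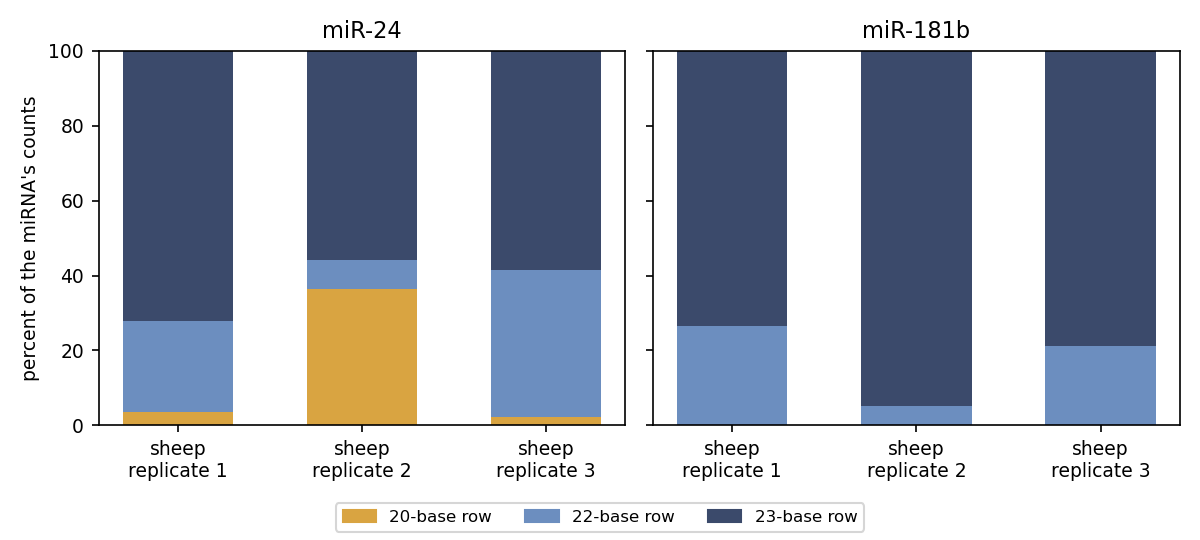
Percent of the counts of miR-24 and of miR-181b in each sheep library that came from the 20-base, 22-base or 23-base row. The 23-base row is the largest in every library, and the 20-base row of miR-24 reaches 36.3% in sheep replicate 2; 1 further miR-24 row of at most 4 counts is not visible.

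Within the clusters, miR-27a over miR-23a was separate between the species, and miR-27b over miR-23b overlapped. Mature miR-24 comes from both clusters, so its ratios are not within 1 cluster. miR-27a over miR-23a, which come from the same cluster, was 2.14, 1.04 and 1.30 on the log2 scale in sheep and -3.11, -3.49 and -2.20 in cow, a difference of 4.43 (exact permutation p = 0.1). miR-24 over miR-23a was 2.41, 2.43 and 2.84 in sheep and -1.43, -1.12 and -0.80 in cow, a difference of 3.68 (exact permutation p = 0.1). In both ratios all sheep libraries were above all cow libraries. miR-27b over miR-23b, from the other cluster, was 6.66, 8.94 and 2.01 in sheep and 3.79, 4.64 and 3.45 in cow, and overlapped (exact permutation p = 0.4). miR-24 over miR-23b was 8.59, 11.42 and 5.71 in sheep and 0.44, 1.18 and 0.80 in cow, without overlap (exact permutation p = 0.1). In all, 8 ratios were compared. The species were separate in 6 of them, with sheep on top in 5 and cow in 1, and none could pass a threshold of 0.05 in this design.

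**Figure D3:**
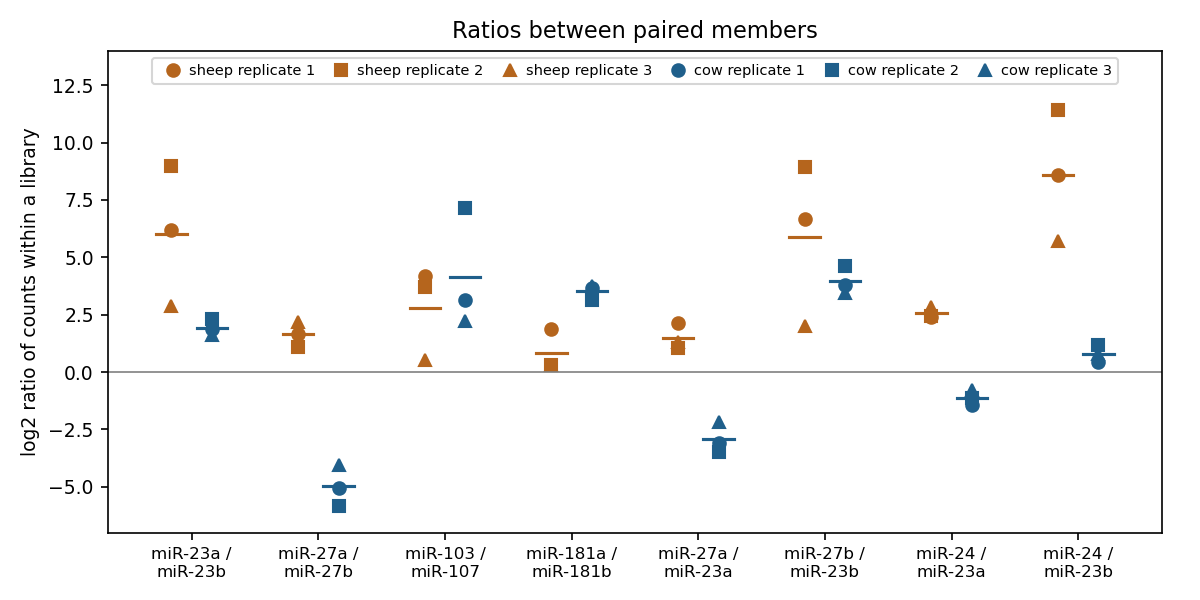
Log2 ratio of 2 members' counts in the same library, with 0.5 added to each count, for 8 pairs; sheep is orange, cow is blue, shapes mark replicate numbers and lines mark the means. miR-27a over miR-27b is above 0 in the 3 sheep libraries and between -5.82 and -4.04 in the 3 cow libraries, and the 2 pairs that overlap are miR-103 over miR-107 and miR-27b over miR-23b.

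miR-181b, tied to insulin signalling, stood at 1007, 1082 and 1738.5 CPM in sheep and at 94.4, 165 and 43.8 CPM in cow. All sheep libraries were higher. The mean share of all miRNA counts was 12.6 times as high in sheep, against 3.14 times over the miRNAs joined by name and 33.9 times over the TPM constant. The sheep counts came from an unnamed 23-base row, which held 73.4%, 94.7% and 78.7%, and a 22-base row with the rest. miR-181a stood at 3719, 1352 and 2180 CPM in sheep and at 1208, 1472 and 598 CPM in cow. These overlapped, since cow replicate 2 lay above sheep replicate 2. The log2 ratio of miR-181a to miR-181b was 1.88, 0.32 and 0.33 in sheep and 3.66, 3.15 and 3.73 in cow, higher in all cow libraries (exact permutation p = 0.1). Another unnamed sheep row with the miR-181 seed held 10, 3 and 11 counts. The pair of miR-181a and miR-181b summed to 4725, 2434 and 3918 CPM in sheep and 1303, 1637 and 642 CPM in cow, without overlap.

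miR-103 and miR-107, the miRNAs of the pantothenate kinase introns, showed no separation of the species by share. miR-103 stood at 456, 127 and 258 CPM in sheep and at 466, 377 and 438 CPM in cow, with sheep replicate 1 inside the cow range. miR-107 stood at 24.3, 9.62 and 177 CPM in sheep and at 51.7, 1.80 and 92.8 CPM in cow, from 1 to 190 counts a library. Their log2 ratio was 4.20, 3.70 and 0.54 in sheep and 3.13, 7.13 and 2.22 in cow, with overlap (exact permutation p = 0.6). Among the sheep libraries, replicate 1 held the highest CPM of miR-27a, miR-27b, miR-103 and miR-181a, and of miR-33a at its 3 counts. Replicate 3 held the highest CPM of miR-23a, miR-23b, miR-24, miR-107 and miR-181b. In values scaled as in the fit by name or sequence described below, miR-27a was highest in replicate 3 and miR-27b in replicate 2.

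miR-33a, the repressor of ABCA1, had 3, 0 and 1 counts in sheep and 0, 22 and 0 in cow. Outside cow replicate 2 it was at or under the floor of 3 counts, and the libraries of the species overlapped. It did not pass the count filter of the edgeR fit described below. Among the other settings miR-33a was tested only in DESeq2, with no filter on low counts, and with limma on both TPM scales. Of these, DESeq2 alone called it, as higher in cow.

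Of the 10 shares, 3 were higher in all sheep libraries and 2 in all cow libraries. Of the 131 miRNAs that could be tested in both species by name or sequence, 45.8% were higher in all sheep libraries and 18.3% in all cow libraries, 64.1% together. Of the 38 that could be tested by miRBase name alone, these were 31.6%, 23.7% and 55.3%. The share of all miRNA counts differed with exact permutation p = 0.1 for each of these 5 members. miR-24, miR-27a and miR-181b also stood higher in all sheep libraries when the denominator was the counts of miRNAs joined by name, or the constant behind the deposited TPM values. miR-27b and miR-23b were higher in all cow libraries with the first of these, but overlapped with the second. miR-23a and miR-103 were higher in all cow libraries with the first, and higher in all sheep libraries with the second. The counts of all 10 members equalled 3.00% of the first denominator in sheep against 8.26% in cow. Only 4 of the 10 are among the miRNAs counted in that denominator, so this is a ratio and not a share. Over the second they were 0.144% against 0.0351%, so the direction of the sum followed the denominator.

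The miRNAs of both species were then fitted together on counts, scaled with TMM factors over the miRNAs that both tables name. By miRBase name alone, 42 miRNAs were joined, and 38 were tested with edgeR's quasi-likelihood test and Benjamini-Hochberg adjustment. At an adjusted p of 0.05, 52.6% of the 38 were called, 28.9% higher in sheep and 23.7% higher in cow. Only 4 members could be tested in this way, and 0 passed in edgeR, with 0 at an unadjusted p under 0.05; DESeq2 called 0, with 1 at an unadjusted p under 0.05. Other settings did call members. With no normalization factors miR-23a, at -2.59, and miR-103, at -2.65, were called higher in cow. miR-181a was called higher in sheep on log2(TPM + 1), at 2.70, on log2(TPM + 10), at 2.40, and without cow replicate 2, at 1.41. With arms summed before the join, 6 members were tested and miR-27a was called higher in sheep. The log2 fold changes of sheep over cow were -0.52 ± 0.59 (SE) for miR-23a, -1.13 ± 0.77 for miR-103, 0.15 ± 1.27 for miR-107 and 0.78 ± 0.57 for miR-181a. With no normalization factors 5 miRNAs were higher in sheep and 13 in cow, with upper-quartile factors 7 and 10, against 11 and 9 in the fit reported. On log2(TPM + 1), limma called 20 and 5, and on log2(TPM + 10) 16 and 4.

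When sheep rows were also named by sequence, 147 miRNAs were joined and 131 tested with edgeR, of which 55.7% were called, 32.8% higher in sheep and 22.9% in cow. All 10 members were joined and 9 tested, all but miR-33a. The test called 7 of these, with 3 higher in sheep and 4 in cow, and left 2 without a call. The median log2 fold change was -0.79 over the 9 members and 0.17 over the 131 miRNAs. This join named 93.7% to 97.6% of the sheep counts but 14.3% to 27.3% of the cow counts. Of all miRNAs tested, 43 were higher in sheep and 30 higher in cow, against 21 and 35 with no normalization factors, 75 and 7 with limma on log2(TPM + 1), and 61 and 4 on log2(TPM + 10). The median of all miRNAs moved by -0.84 and by 2.71 on the log2 scale under the first 2 of these.

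miR-27a was higher in sheep by 2.70 ± 0.64 (log2, SE; edgeR adjusted p = 0.00374), and was called in 14 of 15 other settings. The exception was the fit with no normalization factors, where the difference was 1.76. miR-24 was higher in sheep by 2.04 ± 0.62 (edgeR adjusted p = 0.0159). It was called in 13 of 15 other settings and lost with no normalization factors, at 1.10, and without sheep replicate 3, at 1.63. miR-181b was higher in sheep by 2.38 ± 0.82 (edgeR adjusted p = 0.0250). It was called in 11 of 15 other settings and lost with no normalization factors, at 1.54, and without sheep replicate 3, cow replicate 1 or cow replicate 3, at 2.14, 2.46 and 2.15. Without sheep replicate 1, the sheep library highest in blood and liver markers, the differences were larger, at 3.37 for miR-27a, 3.03 for miR-24 and 3.42 for miR-181b. The median of all miRNAs also moved by 0.67 on the log2 scale in that fit, so a rise as such is not particular to these members. miR-24 and miR-181b moved by more than this median, and whether that sets them apart was not tested.

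miR-27b was higher in cow, at -4.06 ± 0.65 (log2, SE; edgeR adjusted p = 0.000174). It was called in 13 of 15 other settings, with each library left out among them, and was not called with limma on either TPM scale, at -0.98 on log2(TPM + 1). miR-23b was higher in cow, at -3.77 ± 1.37 (edgeR adjusted p = 0.0319), and its call was lost without sheep replicate 2, at -2.87, and without each of the 3 cow libraries, at -3.41, -3.55 and -3.77. Without sheep replicate 3 it was -7.46. The miR-23b call was also lost with upper-quartile factors, at -3.45, with totals of the whole table, at -3.52, and on both TPM scales, at -1.91 and -0.64, and held in 6 of 15 other settings. miR-23a was lower in sheep, at -1.75 ± 0.64 (edgeR adjusted p = 0.0321), but its direction turned to 1.17 on log2(TPM + 1). Without sheep replicate 1 it was -0.75 and not called, and the call held in only 1 of the 6 fits with a library left out. It was also lost with upper-quartile factors, at -1.33, and with totals of the whole table, at -1.30, and held in 6 of 15 other settings. miR-103 was lower in sheep, at -2.05 ± 0.77 (edgeR adjusted p = 0.0368), turned to 0.80 on log2(TPM + 1), and was not called when any 1 of the 6 libraries was left out. It was not called with totals of the whole table either, at -1.75, and held in 6 of 15 other settings. miR-107 did not pass, at -0.79 ± 1.44, nor in any of the 15 other settings. miR-181a did not pass, at -0.27 ± 0.60, but limma called it higher in sheep on both TPM scales, at 2.70 (adjusted p = 0.00581) and 2.40 (adjusted p = 0.0139).

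**Figure D4:**
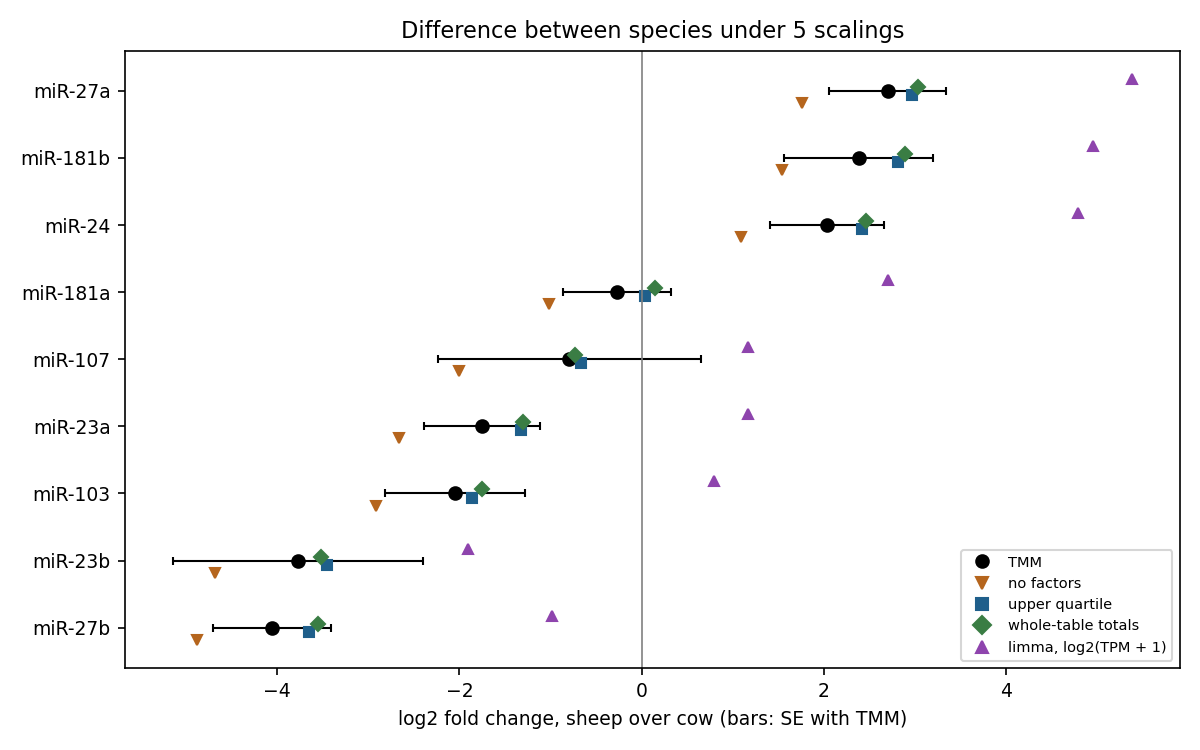
Log2 fold change of sheep over cow for the 9 members tested, from the fit by name or sequence with TMM factors (black, with SE) and under 4 other scalings. miR-27a, miR-24 and miR-181b are above 0 and miR-27b and miR-23b below 0 under all 5, while miR-23a, miR-103, miR-107 and miR-181a change sign with the scaling.

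Because reads may pass between paralogs, the pairs were also summed before the fit, an alternative chosen after seeing the data. The miR-27 pair was then lower in sheep, at -2.005 ± 0.65 (edgeR adjusted p = 0.0134), whereas its mean share of the TPM constant was higher in sheep with overlap, at 0.0367% against 0.0214%. The call was lost without sheep replicate 2, at -1.96, or cow replicate 2, at -1.51. The miR-23 pair was lower in sheep at -1.91 ± 0.70 (edgeR adjusted p = 0.0253), and likewise higher in mean share of the TPM constant, at 0.00997% against 0.00581%. Without sheep replicate 1 it was -0.93 and not called, and the call was also lost without sheep replicate 2, cow replicate 1 or cow replicate 2, at -1.93, -1.72 and -1.65. The miR-103 and miR-107 pair was -1.76 ± 0.85 (edgeR adjusted p = 0.0745), and the miR-181 pair 0.33 ± 0.65 (edgeR adjusted p = 0.690). Neither passed with TMM factors. With no normalization factors the miR-103 and miR-107 pair was called lower in sheep, at -2.78 (edgeR adjusted p = 0.0167), and the miR-181 pair was -0.53 and not called. With totals of the whole table the miR-23 pair lost its call, at -1.31 (edgeR adjusted p = 0.0630), while the miR-27 pair kept it, at -1.37.

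A list of 23 other miRNAs named in work on ruminant mammary lipid metabolism was read in the same fit by name or sequence. Of these, 16 were tested. The test called 6 of these as higher in sheep and 3 as higher in cow, left 7 without a call, and gave a median of -0.22. Over all 131 miRNAs tested, 32.8% were called higher in sheep and 22.9% in cow, with a median of 0.17. miR-148a, the abundant miRNA of the lactating gland, was higher in sheep by 6.77 ± 0.85 (edgeR adjusted p = 7.0e-05), and miR-21 by 2.37 ± 0.63 (edgeR adjusted p = 0.00693). For cow, miR-148a was read from its named row alone, with 600, 1217 and 402 counts in replicates 1, 2 and 3. The largest cow row, which is unnamed, held 58.9%, 51.2% and 68.9% of the counts there. Whether unnamed cow rows hold miR-148a reads was not tested, so the size of the miR-148a difference is uncertain. This limit applies to the other miRNAs of the list too. miR-141, an epithelial miRNA, was higher in sheep by 4.51 and miR-183 by 2.71. miR-34a had 146, 87 and 95 counts in sheep and 0, 0 and 0 in cow, and miR-29c had 0, 0 and 1 in cow. miR-26a was higher in cow at -3.27 ± 0.59 (edgeR adjusted p = 0.000488), miR-25 at -6.54 ± 1.19 (edgeR adjusted p = 0.000499) and miR-26b at -2.22 ± 0.72 (edgeR adjusted p = 0.0201). miR-29a did not pass, at -0.39 ± 0.66. By miRBase name, 8 of the list were tested, of which 2 passed in each direction.

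Among 146 joined miRNAs, the profiles most like that of miR-24 over the 6 libraries were those of let-7i, miR-21 and miR-151-3p, with Pearson r of log2(CPM + 1) of 0.993, 0.991 and 0.990. For miR-27b they were miR-191, miR-30b and miR-421, with r of 0.986, 0.972 and 0.962. These are descriptions, since the 6 libraries fall into 2 species groups that alone can give a high r.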

How the data were processed

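Deposited counts, whole numbers of reads per miRNA row, came as 1 table a species with 1 column a library. The TPM values the authors deposited equal count over 1 constant per library, with no length correction; the constants lie between 9859791 and 16091056, and the sources used here do not say what they count. The submitters' processing notes name cutadapt 1.14 and Bowtie; the sources used here give neither a build nor a miRBase release. Libraries were made with adapter ligation and PCR, per the labels' protocols. No 2 libraries were identical.

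Rows were joined by mature name, or by name and sequence. The plan was to name unnamed sheep rows from a reference table of mature sequences, which was not used here. Instead 137 sheep rows were given 114 names from textbook sequences recalled from memory, over at least 17 bases, at an offset of at most 2 and a length difference of at most 4, with 2 rows renamed by hand; near matches with 2 or more mismatches were dropped except 1 miR-24 row. These names, miR-24, miR-27b, miR-33a and miR-181b in sheep included, were checked against no database. Cow rows have no sequences, so the join is one-sided. A name without an arm was joined where only 1 arm had counts in the other table.

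Counts were tested with edgeR 4.0.16 (quasi-likelihood, TMM, library size equal to the joined total, default filterByExpr, Benjamini-Hochberg over all miRNAs tested, threshold 0.05); SEs came from the fold change and F. Exact two-sided permutation tests were used for shares and ratios (0.5 added). Alternatives were DESeq2 1.42.0 (mean dispersion fit), limma 3.58.1 on log2(TPM + 1) and log2(TPM + 10), other scalings, filters, denominators, arms summed, a replicate block and each library left out. The edgeR fit was also run on simulated counts with log2 changes of 3 planted in either direction. It recovered 84.6% of them by name and 55.7% by name or sequence, so a difference of that size can be missed. It called 2% and 1.67% of the unchanged miRNAs. Both species had the same simulated profile apart from the planted changes, which were about equally many in each direction. These rates therefore do not measure error from the scaling between species or from the one-sided join. Every row taken by the member rule is named or counted. The members, lists and rules were chosen with earlier results of these data known.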

Additional observations from a re-analysis of the deposited data

How the results depend on the processing

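Of the miRNAs joined by name, 11 were called higher in sheep and 9 higher in cow. The count higher in sheep was 5 with no normalization factors, 7 with upper-quartile factors, 20 with limma on log2(TPM + 1) and 7 with a replicate block. The count higher in cow was 5 and 4 with limma on log2(TPM + 1) and log2(TPM + 10), and 14 with arms summed. By name or sequence, 43 higher in sheep became 21 with no normalization factors and 75 on log2(TPM + 1), and 30 higher in cow became 7 and 4 on the TPM scales. Leaving out 1 library gave 8 to 15 higher in sheep, 8 to 9 higher in cow and 17 to 23 in all by name, and 30 to 46, 23 to 27 and 53 to 73 by name or sequence.

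Some members reversed. In both joins miR-23a was 1.17 and 1.00 and miR-103 0.80 and 0.57 on log2(TPM + 1) and log2(TPM + 10). By name miR-107 was -0.090 in DESeq2, -2.05 with no factors, -0.31 with upper-quartile factors, -0.071 with DESeq2 size factors and -0.36 with arms summed, and -2.19 to 1.62 with a library left out. miR-181a was -0.74 with no factors. By name or sequence miR-107 was 1.17 and 0.36 on the TPM scales and -2.94 to 0.27 with a library left out. miR-181a was 0.037 with upper-quartile factors, 0.15 with totals of the whole table, 2.70 and 2.40 on the TPM scales, and -0.46 to 0.26 with a library left out. DESeq2 gave no adjusted p for miR-23b in this join. The cause was not tested.

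The difference in share of all 10 members was 0.469 percentage points. It became -5.26 over the miRNAs joined by name, which include only 4 of the 10. With sheep rows of a miRBase name only it was -0.341, and with a library left out 0.247 to 0.672. Single shares reversed for miR-23a (0.00487) and miR-103 (0.00145) over the TPM constant, and for miR-107 (-0.0437) and miR-181a (-0.365) over the joined miRNAs. With a library left out, miR-107 ranged from -0.00318 to 0.00518 and miR-33a from -0.00186 to 0.000121. The log2 ratios, which need no scaling, kept their direction when 1 library was left out except miR-103 over miR-107, at -2.32 to 0.14. The ranges were 6.18 to 7.07 for miR-27a over miR-27b, 2.60 to 5.66 for miR-23a over miR-23b, -3.19 to -2.41 for miR-181a over miR-181b, 4.10 to 4.79 for miR-27a over miR-23a, 3.52 to 3.83 for miR-24 over miR-23a, 6.34 to 9.20 for miR-24 over miR-23b and 0.38 to 3.84 for miR-27b over miR-23b.

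The replicate numbers share no animal. After each miRNA's mean within its species was taken out, same-numbered libraries correlated at 0.05, 0.14 and -0.02 on the log2 scale. With 3 libraries a species, such values cannot show whether they share more than a number. The replicate block gave 41 and 31 calls by name or sequence, and the same 7 members passed, 3 higher in sheep and 4 in cow, with miR-27a at 2.69 and miR-23b at -6.21. Low counts limit miR-33a, miR-107 and sheep miR-23b.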

Other observations

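In sheep replicate 3 the miR-23b row and the miR-107 row both held 190 counts, and both stood far above the other sheep libraries, at 11 and 3 counts and at 27 and 20. The other-arm rows of sheep miR-24 ranged from 0.436% to 3.44% of the 23-base hairpin's counts between libraries, and from 0.281% to 1.10% of the 22-base hairpin's.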
